A study of Mus musculus with 4 samples.

Results

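A set of 10 genes encoding inflammatory cytokines were followed through the cells of mouse HGG-MYCN, a brain tumor model of pediatric high-grade glioma with MYCN amplification. The genes were given as a list by name and are 10 of the 21861 genes measured. They are Il1a and Il1b with their brake Il1rn, the related Il18, and the alarm cytokines Tnf, Il6 and Osm. The others are the T cell instructing subunit Il12b and the restraining cytokines Il10 and Tgfb1. Tumors of 4 hGFAP-cre::TP53Fl/Fl::lsl-MYCN mice were profiled by droplet-based 3′ single-cell RNA sequencing, of which mice 4 and 5 were 43 days old (P43) and mice 6 and 7 were 70 days old (P70). All 4 animals carried the same alleles, so that Cre under the hGFAP promoter deleted p53 and switched on human MYCN with a luciferase reporter in neural progenitors. The tumors arose in these animals themselves, and the paper assigns immune and vessel cells to the non-malignant cells. No treatment is named for any of the mice, there was no tumor-free group, and P43 against P70 was the only contrast. The authors describe the P43 tumors as early in onset and those at P70 as further developed. Age and tumor stage therefore cannot be told apart, and a change with age stands for both. Suspensions made with papain were frozen and thawed before dead cells were removed, so every level describes cells after that handling.

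Cytokines are short-range signals that immune cells release when they sense damage, microbes or each other. The IL-1 branch starts with IL-1α and IL-1β, which act on the receptor Il1r1, and IL-1β and IL-18 are made as precursors that an inflammasome with caspase-1 has to cut. Il1rn encodes the receptor antagonist that occupies the same receptor without signalling. TNF acts through Tnfrsf1a and Tnfrsf1b and, like IL-1, drives NF-kappaB, whereas IL-6 and oncostatin M use the shared subunit Il6st and drive STAT3. IL-12 p40, the product of Il12b, is secreted by activated dendritic cells and acts on T and NK cells, and TGF-β1 is secreted in a latent form that has to be activated outside the cell. In the brain, microglia and infiltrating myeloid cells are well known sources of IL-1β, TNF and TGF-β1.

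The 10 genes are protein coding and lie on 7 chromosomes of the mouse build mm10 (GRCm38). Il1b (chr2:129364570-129371139, minus strand) and Il1a (chr2:129299610-129309972, minus strand) are neighbours, and Il1rn lies elsewhere on the same chromosome (chr2:24336853-24351494, plus strand). Il12b (chr11:44400063-44414033) and Osm (chr11:4236420-4241026) share chromosome 11. Il6 (chr5:30013114-30019981), Il10 (chr1:131019845-131024974), Il18 (chr9:50554827-50581840) and Tgfb1 (chr7:25687002-25705077) are on the plus strand, as are Il12b and Osm, and Tnf (chr17:35199381-35202007) is on the minus strand. RefSeq promoter windows of the GRCm38.p6 assembly, from 250 bases before to 50 bases after a start site, matched 8 of the 10 genes, with no entry for Il10 and Osm. Shown are the windows of the 4 genes whose level changed with age in immune or vessel cells in the results that follow, 5′ to 3′ on the strand of the gene. Capitals mark matches on either strand to GGGNNNNNCC, a loose form of the NF-kappaB consensus that leaves the inner positions free.

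Il1b, chr2:129371090-129371389, minus strand: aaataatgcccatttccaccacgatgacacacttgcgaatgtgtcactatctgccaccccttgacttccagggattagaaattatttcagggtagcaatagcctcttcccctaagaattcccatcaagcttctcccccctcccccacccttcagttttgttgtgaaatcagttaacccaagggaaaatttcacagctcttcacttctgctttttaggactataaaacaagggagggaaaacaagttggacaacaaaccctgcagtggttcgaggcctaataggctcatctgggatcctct
Il12b, chr11:44399813-44400112, plus strand: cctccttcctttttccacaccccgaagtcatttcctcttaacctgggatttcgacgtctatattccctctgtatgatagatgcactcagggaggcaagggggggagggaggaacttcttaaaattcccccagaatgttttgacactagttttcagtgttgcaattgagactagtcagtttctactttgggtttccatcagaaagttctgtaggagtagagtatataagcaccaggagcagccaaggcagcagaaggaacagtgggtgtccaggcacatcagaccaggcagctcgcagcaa
Il6, chr5:30012864-30013163, plus strand: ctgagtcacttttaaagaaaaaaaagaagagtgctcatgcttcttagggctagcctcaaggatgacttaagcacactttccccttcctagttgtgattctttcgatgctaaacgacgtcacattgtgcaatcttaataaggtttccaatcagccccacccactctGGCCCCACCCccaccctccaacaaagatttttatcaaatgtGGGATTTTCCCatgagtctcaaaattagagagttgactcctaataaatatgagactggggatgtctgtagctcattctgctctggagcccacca
Tnf, chr17:35201958-35202257, minus strand: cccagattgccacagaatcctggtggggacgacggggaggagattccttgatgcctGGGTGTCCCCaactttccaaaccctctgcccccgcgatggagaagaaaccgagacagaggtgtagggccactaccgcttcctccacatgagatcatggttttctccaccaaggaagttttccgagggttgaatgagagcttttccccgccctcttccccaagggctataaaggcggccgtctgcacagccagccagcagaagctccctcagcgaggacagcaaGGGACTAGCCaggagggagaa

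The window of Il6 held 3 matches, of which GGGATTTTCC and GGATTTTCCC overlap, and that of Tnf held 2. The windows of Il1b and Il12b held 0. This loose form is found in 16686 of all 32851 windows (50.8%), so that a match or its absence in these windows describes letters only. Among the other members, Tgfb1 held 8 matches, the 3 start sites of Il1rn held 1 to 2 each, and Il1a and Il18 held 0.

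Levels are unique molecular identifiers (UMIs), the count of captured RNA molecules, scaled to the total UMIs of the summed cells of a class in a mouse (CPM, counts per 10 to the power of 6 UMIs). The libraries held 1739 to 3693 barcodes and 13106786 to 40621958 UMIs, of which 1456 to 3469 cells per mouse were kept, 10975 in all. The median depth of kept cells was lowest in mouse 4 with 1419 UMIs and highest in mouse 7 with 10450 UMIs. Classes were named from marker lists, so that each name stands for cells with those markers, and the 10 cytokine genes were kept out of the genes used for clustering. Mouse 4 and mouse 5 went against their sex labels. Genes of the Y chromosome reached 227 CPM in immune and vessel cells of mouse 4, labelled female, and 0.651 CPM in mouse 5, labelled male. Both are P43 animals, and results are given without each mouse where a call turns on one. Pairs of libraries shared 1 to 3 cell barcodes. In mouse 6, Il1b was also found at 20.1 to 91.8 CPM in T and NK cells, endothelial cells (EC), mural cells, and oligodendrocyte-like (OL-like) and astrocyte-like (AC-like) tumor cells, against at most 7.6 CPM in the same classes of the other mice with at least 20 cells.

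Most UMIs of the cytokine genes lay in Myeloid cells, a class that joined clusters named from microglia and macrophage markers such as C1qa and Csf1r (385 and 166 cells) with clusters named from monocyte markers such as Ly6c2 and Vcan (280 and 269 cells). These cells held 116 of the 125 Il1a UMIs (92.8%), 1906 of 2236 Il1rn UMIs (85.2%), 612 of 823 Osm UMIs (74.4%), 16601 of 24064 Il1b UMIs (69.0%), 2186 of 4222 Tgfb1 UMIs (51.8%) and 271 of 667 Tnf UMIs (40.6%). Dendritic cells (DC) held most of Il12b, with 994 of 1219 UMIs (81.5%), and the second largest share of Il1b with 6105 UMIs (25.4%). Il6 was split over DC with 43, mural cells with 42 and Myeloid cells with 33 of 124 UMIs. Il18 stood apart, since OL-like tumor cells, the oligodendrocyte-lineage cells that make up most tumor cells, held 407 of its 1068 UMIs (38.1%). Il10 was found with 15 UMIs in 5 cells of all mice.

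**Figure D1:**
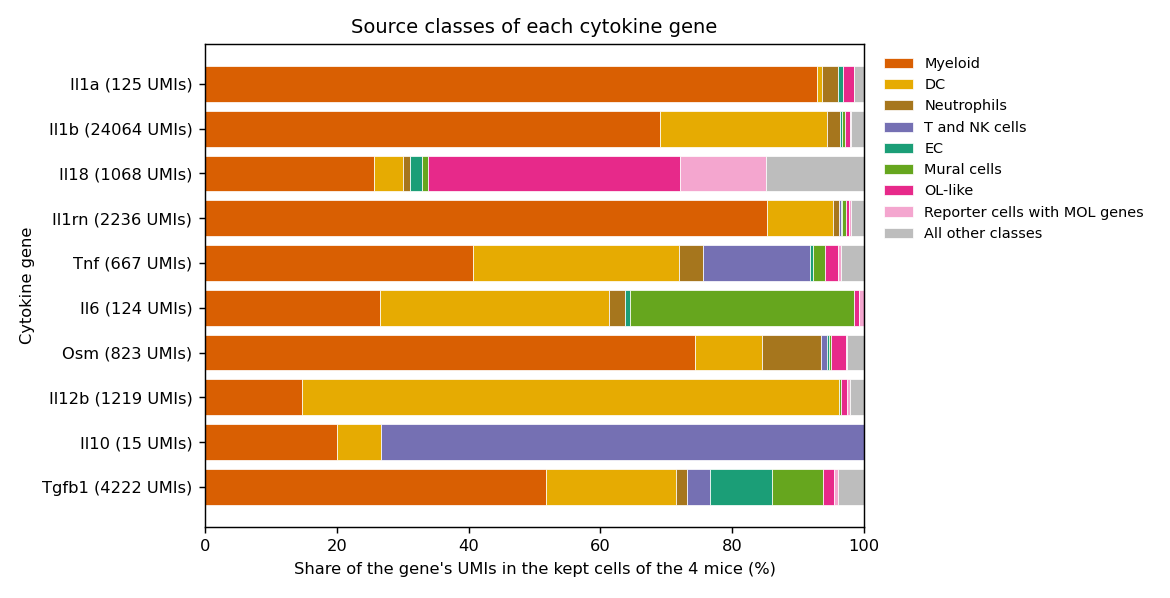
Share of each cytokine gene's UMIs in the kept cells of the 4 mice (x axis, percent) by cell class, with the gene and its total UMIs on the y axis. Myeloid cells hold over 50% of Il1a, Il1b, Il1rn, Osm and Tgfb1, DC hold 81.5% of Il12b, and OL-like cells hold 38.1% of Il18.

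The pooled shares were weighted towards mouse 6, which alone had 829 of the 1100 Myeloid cells. Averaged over mice, Myeloid cells held 62.9% ± 7.41 (SD, n = 4) of Il1b and DC held 27.3% ± 6.76 (SD, n = 4). For Il1rn the Myeloid share per mouse was 65.4% ± 15.2, and for Tgfb1 it was 38.3% ± 21.3 (SD, n = 4 each). Clusters were built from these same cells, so levels across classes are described and were not tested.

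**Figure D2:**
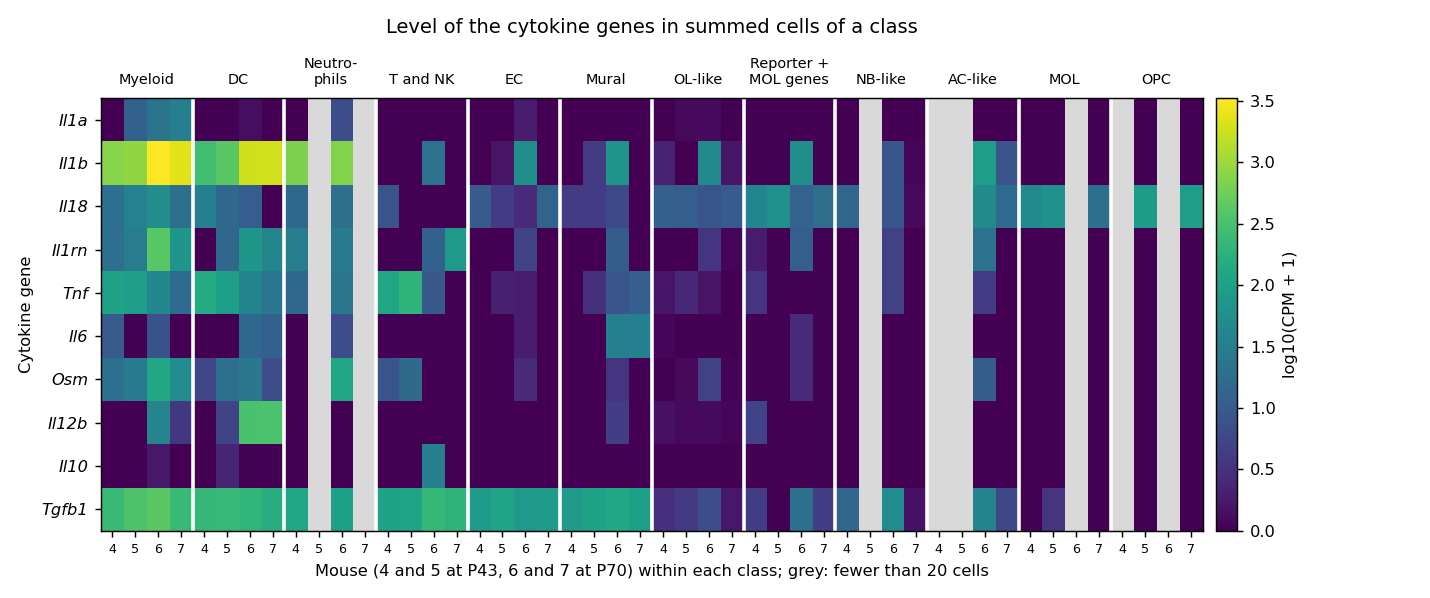
Heat map of log10(CPM + 1) for the 10 cytokine genes (rows) in the summed cells of 12 classes, with the 4 mice of each class side by side (columns, mice 4 and 5 at P43, mice 6 and 7 at P70) and grey for fewer than 20 cells. Colors compare mice and classes along a row, and Il1b, Il1rn, Tnf and Osm are brightest in immune classes whereas Il18 has signal in MOL and OPC.

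Il1b, the gene of IL-1β and the most counted of the 10, rose with age in both Myeloid cells and DC. In Myeloid cells it was at 759 and 867 CPM in the P43 mice 4 and 5 and at 3332 and 2349 CPM in the P70 mice 6 and 7. In DC it was at 287 and 420 CPM at P43 and at 1881 and 1889 CPM at P70. The ages did not overlap in either class. With 2 mice per age, such a lack of overlap here and below describes 4 values and is not a test. The log2 change was 1.88 (SE 0.23, adjusted p = 0.0115) in Myeloid cells and 2.38 (SE 0.26, adjusted p = 0.00407) in DC, by edgeR's quasi-likelihood test with Benjamini-Hochberg adjustment over all genes tested.

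Il1b was 1 of the 6 members tested in Myeloid cells and the 1 that passed, where 0.453% of 5521 genes were called higher and 0.652% were called lower at P70. In DC, 2 of the 5 members tested were higher, Il1b and Il12b, against a background of 0.724% higher and 0.344% lower among 5527 genes. Il12b had 0 and 3 UMIs in DC of the P43 mice and passed the filter on low counts through the P70 mice, so that this count depends in part on the change itself. The call of Il1b in DC held in all 11 alternatives, with log2 changes of 2.14 to 2.74. The call in Myeloid cells held in 9 of 11 and was lost without mouse 4 (log2 change 1.80, adjusted p = 0.121) and without integration of the mice (adjusted p = 0.0552). Whether the rise differed between both classes was tested as an interaction with the mouse as a block, which called 0.735% of 6397 genes. None of the 7 members tested passed, and the Il1b change was 0.54 larger in DC on the log2 scale (SE 0.20, adjusted p = 0.344).

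**Figure D3:**
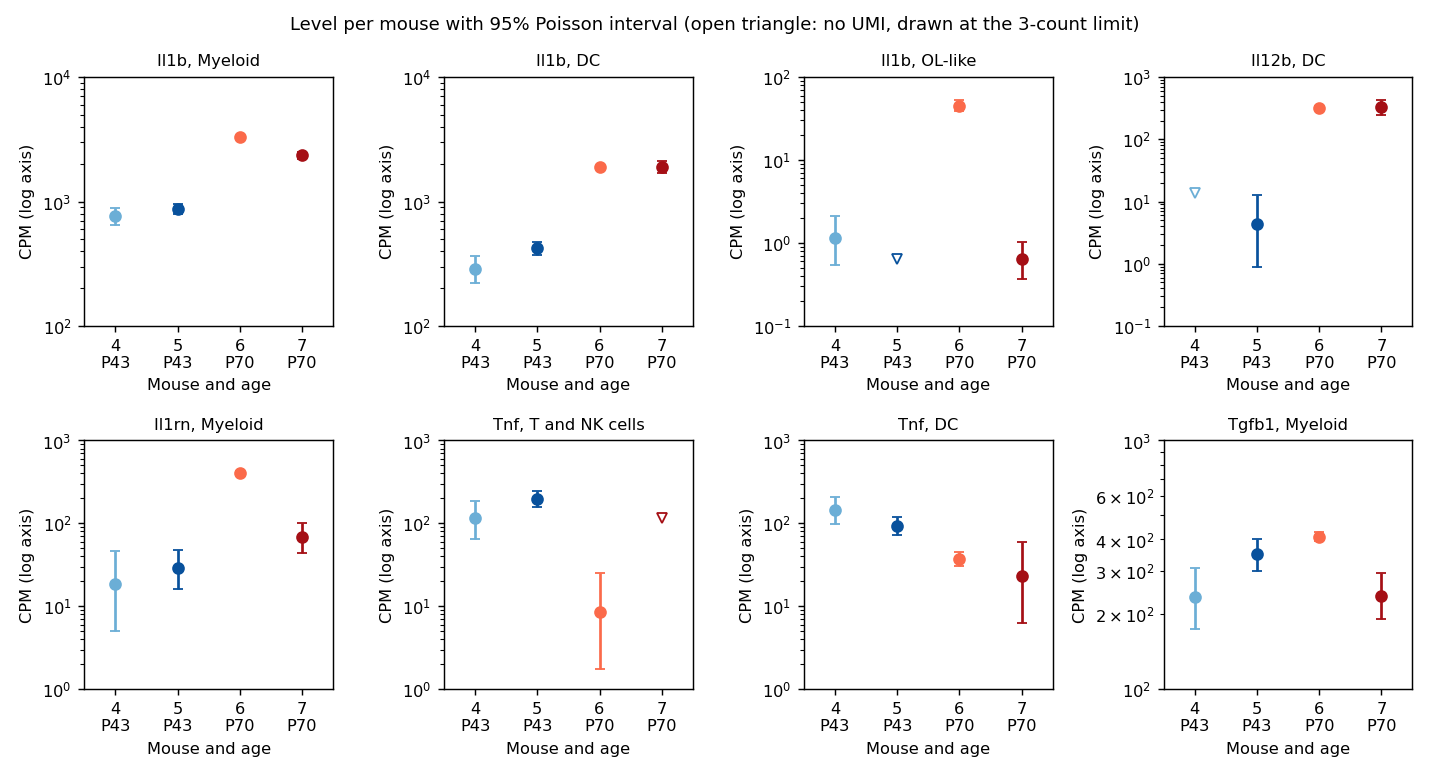
CPM per mouse on log axes (y) for 8 pairs of gene and class, with mouse and age on the x axis, points for the summed cells and bars for the 95% Poisson interval, which covers counting error only. Il1b in Myeloid cells and DC and Il12b in DC lie higher in both P70 mice, Tnf in DC lies lower in both, and Il1b in OL-like cells is raised in mouse 6 alone.

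More Myeloid cells carried Il1b at P70, and the median cell carried more of it. After every cell was thinned to 2000 UMIs, a UMI of Il1b was found in 15 of 36 Myeloid cells of mouse 4 (41.7%, exact binomial interval 25.5 to 59.2%) and in 35 of 65 of mouse 5 (53.8%, 41 to 66.3%). At P70 it was found in 645 of 762 cells of mouse 6 (84.6%, 81.9 to 87.1%) and in 73 of 88 of mouse 7 (83.0%, 73.4 to 90.1%). The median Myeloid cell held 0 and 1 UMIs of Il1b at P43 and 5 and 4 UMIs at P70. The share in OL-like cells, given for comparison, was 0.142% of 705 cells in mouse 4, 0 of 207 cells in mouse 5 (a limit of 1.45%), 10.0% of 300 in mouse 6 and 0.216% of 1855 in mouse 7. Without thinning, the Myeloid shares were 39.7, 72.5, 87.5 and 75.7% and the OL-like shares 0.575, 0, 18.1 and 0.641% in mice 4 to 7, at median depths of 3572.5, 7617, 5333 and 2315.5 UMIs in Myeloid cells and 1521.5, 24027, 6077.5 and 12392 UMIs in OL-like cells. The share in T and NK cells of mouse 6, 2 of 67 (2.99%), was below that of its OL-like cells, and whether it is background was not tested. Whether free RNA reached the other classes of mouse 6 was not tested. The summed level of the 8 Myeloid markers was also highest there, with 254 CPM in EC and 91.6 CPM in OL-like cells of mouse 6 against 0 to 11.5 and 8.19 to 22.3 CPM in the other mice.

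Clusters within Myeloid cells differed in how far apart the ages lay, and their makeup changed. The cluster led by Vcan, Ace and Fn1 held 27 of 58 Myeloid cells in mouse 4, whereas the cluster led by Retnla, C1qb and Mmp12 held most in mouse 5 (34 of 69), mouse 6 (279 of 829) and mouse 7 (62 of 144). In the Retnla cluster Il1b was at 144 and 654 CPM at P43, from 10 and 34 cells, and at 4462 and 3332 CPM at P70. In the Vcan cluster the levels were closer together, with 1540 and 1317 CPM at P43 and 2179 and 1745 CPM at P70. The cluster led by Acod1, Ly6i and Saa3, with 8 and 3 cells at P43, was at 1021 and 1106 CPM against 3742 and 3186 CPM. In the cluster led by Vcam1, Olfml3 and Trem2, with 13 and 12 cells at P43, the ages overlapped, at 62.6 and 814 CPM against 2059 and 432 CPM. Among DC, the Cd209a cluster, with 19 and 40 cells at P43, went from 154 and 625 CPM to 2713 and 2164 CPM. Plasmacytoid cells (Siglech, Ly6d) had 8 Il1b UMIs in 76 cells. The class named neutrophils held 487 Il1b UMIs. It joined a cluster led by Retnlg and Mmp8, at 1182 CPM of Il1b in the 42 cells of mouse 6, with a cycling cluster led by H1f5, Ube2c and Top2a, at 545 CPM in the 46 cells of mouse 6. In mouse 4, 30 of its cells were in the cycling cluster and 1 was in the Retnlg cluster, Camp, Ngp, Ly6g and Ltf were at 0, and the neutrophil markers summed to 4396 CPM against 153001 CPM in mouse 6, so that no neutrophil level is given for mouse 4. Mice 5 and 7 had 11 and 5 cells of the class.

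**Figure D4:**
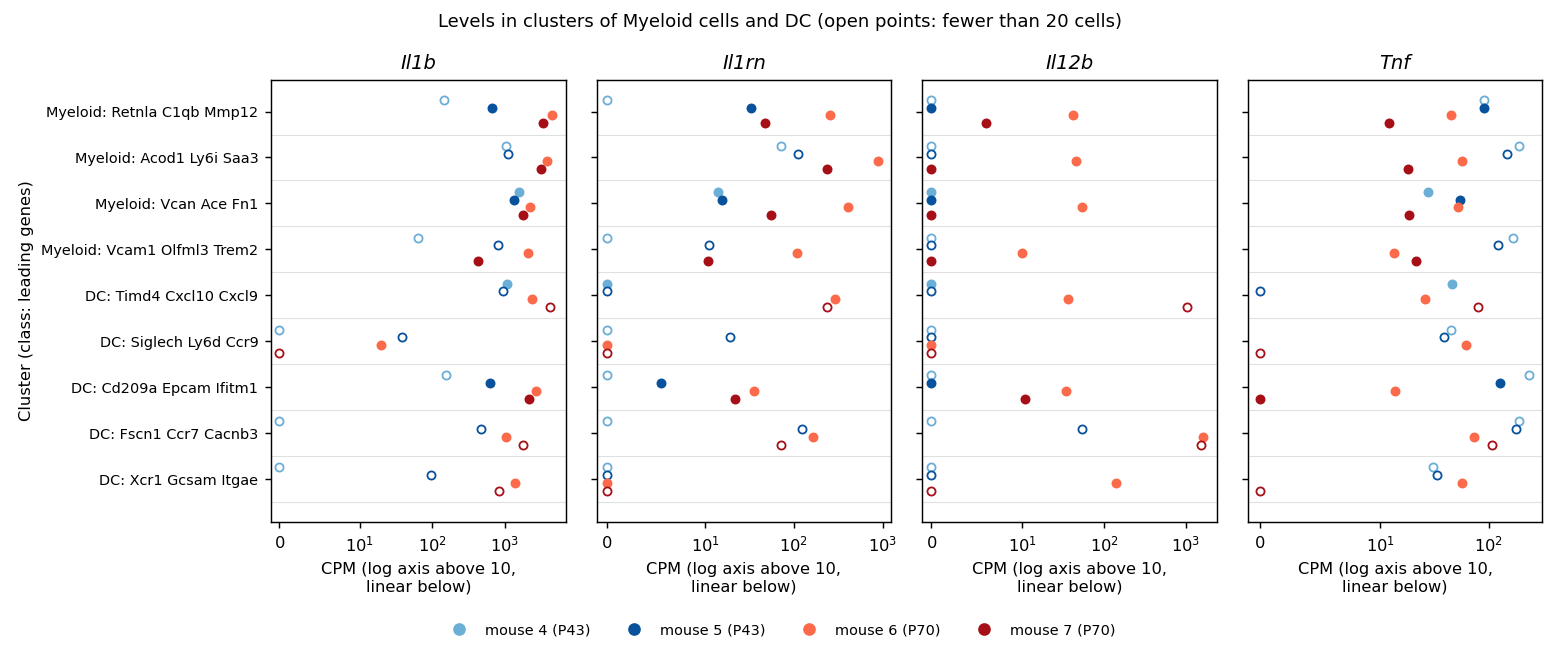
CPM (x axis, log above 10 and linear below) of Il1b, Il1rn, Il12b and Tnf in 9 clusters of Myeloid cells and DC (y axis, named by leading genes), with 1 point per mouse and open points for fewer than 20 cells. Il12b peaks in the Fscn1 and Ccr7 cluster at P70 with 1625 and 1543 CPM, and Il1rn is highest in the Acod1 cluster of mouse 6 with 884 CPM.

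Il1rn, the antagonist of the same receptor, was higher in both P70 mice in Myeloid cells and DC, and in Myeloid cells it was mainly a feature of mouse 6. Myeloid cells held 18.4 and 28.7 CPM at P43 and 410.5 and 67.7 CPM at P70 (mice 6 and 7), and the ages did not overlap. The log2 change of 3.39 (SE 0.80, adjusted p = 0.0897) did not pass the test. It was 1.51 without mouse 6 and 4.11 without mouse 7, fits that each leave 1 mouse at P70, so that mouse 6 carries most of its size. DC held 0, 14.3, 72.5 and 40.4 CPM in mice 4 to 7, with no overlap of the ages. There the log2 change of 2.57 (SE 0.60, adjusted p = 0.0806) did not pass, and it passed in 5 of 9 alternatives. In fits that left out 1 mouse it was at least 2.12. A UMI was found in 37.7% of thinned Myeloid cells of mouse 6 and in 11.4% of those of mouse 7, against 5.56% and 4.62% at P43 and 0 to 1% in OL-like cells. Without thinning the Myeloid shares overlapped between ages, at 5.17, 15.9, 54.5 and 9.72% in mice 4 to 7. The Acod1 cluster held 984 of the 1906 Myeloid UMIs. Among the Myeloid cells of mouse 6 with Il1rn, 86.8% also held Il1b, against 84.6% of all of them.

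Il1a, which encodes IL-1α, was rare. Myeloid cells of mouse 4 held 0 UMIs, a limit of 13.8 CPM, and those of mice 5, 6 and 7 held 11.5, 21.6 and 32.5 CPM from 6, 98 and 12 UMIs. It was not tested in any class because it did not pass the filter on low counts. In thinned Myeloid cells it was found in 3.08 to 3.81% in mice 5 to 7, and in 0 OL-like cells. Of the 29 Il1a cells of mouse 6, 28 also held Il1b.

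Il18 was the 1 gene whose largest share of UMIs lay outside immune and vessel cells. OPC, precursors of oligodendrocytes marked by Pdgfra, held 85.5 and 89.4 CPM in mice 5 and 7, the mice with at least 20 of them. They also carried 264 and 256 CPM of the tumor reporter in these mice, and whether they are tumor or normal cells was not tested. Mature oligodendrocytes (MOL) held 47.9, 62.7 and 18.8 CPM in mice 4, 5 and 7. The MOL of mouse 7 also carried 673 CPM of the tumor reporter, against 7.56 and 26.5 CPM in mice 4 and 5. OL-like tumor cells held less, with 11.1, 10.4, 7.15 and 9.34 CPM in mice 4 to 7, a mean of 9.49 ± 1.71 (SD, n = 4). Myeloid cells held 18.4, 34.5, 54.0 and 18.9 CPM, with 91.5 CPM in the Vcan cluster pooled over mice. A UMI was found in 18 of 96 thinned OPC of mouse 7 (18.8%, 11.5 to 28.0%) and in 2.37% of its OL-like cells.

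One class had a fall of Il18 with age. Reporter cells with MOL genes carried both the tumor reporter and mature oligodendrocyte markers. Whether they are tumor cells, normal oligodendrocytes or mixtures could not be told, and this may differ between ages. Their Il18 level was 40.7 and 57.4 CPM at P43 and 12 and 17 CPM at P70, with no overlap. The log2 change was −1.72 (SE 0.40, adjusted p = 0.0387), where 5.51% of 8349 genes were called lower. The call held in 7 of 10 alternatives and was lost with DESeq2 (adjusted p = 0.0625), without mouse 4 (0.106) and without mouse 5 (0.289). The reporter level of these cells also differed between ages, at 247 and 192 CPM against 1801 and 1032 CPM, and its part in the fall was not tested. In OL-like cells Il18 had a log2 change of −0.43 (SE 0.33, adjusted p = 1.0), and in Myeloid cells of 0.63 (SE 0.53, adjusted p = 0.688), which turned to −0.50 without mouse 6. In OL-like cells edgeR called 0 genes (0%) of 11539 in either direction, 499 had an unadjusted p under 0.05, and DESeq2 called 35.

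Tnf was lower at P70 in T and NK cells, where Il1b was found in mouse 6 alone, at 20.1 CPM (7 UMIs). T and NK cells, led by Gzma, Cd3g and Il17a, held 115 CPM in mouse 4 (16 UMIs) and 198 CPM in mouse 5 (89 UMIs). At P70 they held 8.63 CPM in mouse 6 (3 UMIs) and 0 UMIs in mouse 7, whose 22 cells allow up to 118 CPM. The ratio of summed levels was 22.2 in favor of P43, with a counting interval of 7.38 to 109. The fitted log2 change was −4.27 (SE 0.64, adjusted p = 0.0104). Of the 2 members tested in this class Tnf was the 1 that passed, against 0.504% of 3970 genes lower and 0.882% higher. Tnf came through the filter on low counts by its P43 levels, so that its place among the 2 depends on the change itself. The call was lost without mouse 5 (adjusted p = 0.0573) and without mouse 6 (0.189), which leaves 22 cells at P70, and DESeq2 gave no adjusted p.

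The makeup of this class also differed between mice. In an alternative chosen after seeing the data, the class was split as at resolution 1.0, into a T cell cluster led by Il17a, Cd163l1 and Cd3g and an NK cell cluster led by Gzma, Gzmb and Xcl1. The T cell cluster held 41.5, 73.6, 35 and 18.2% of the cells of the class in mice 4 to 7, or 22, 106, 35 and 4 cells. Its Tnf level was 233 and 261 CPM at P43 and 16.4 CPM (2 UMIs) in mouse 6, with 0 UMIs in mouse 7. The NK cell cluster held 56.0 and 38.8 CPM at P43, from 5 UMIs in each mouse, and 0 UMIs at P70, which allows up to 16.9 CPM in mouse 6 and 132 CPM in mouse 7. In the other 3 settings that split the class, the T cell cluster had 92 to 94 cells in mouse 5 and at most 2 in each P70 mouse, so that its Tnf level could not be compared, and the NK cell cluster went from 74.2 to 124 CPM at P43 to 8.88 to 9.23 CPM in mouse 6. These levels were not tested, and the part of the makeup in the change of the whole class was not tested.

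In thinned T and NK cells Tnf was found in 6 of 35 cells of mouse 4 (17.1%) and 33 of 122 of mouse 5 (27.0%), against 2 of 67 of mouse 6 (2.99%) and 0 of 3 of mouse 7. OL-like cells held it in at most 0.333%. Immediate early genes moved with Tnf in this class. Jun was at 1338 and 1730.5 CPM at P43 and 250 and 510 CPM at P70, and Egr1 at 259 and 320 against 46.0 and 118 CPM. Of 14 genes of the dissociation response list, 13 were tested, these 2 were lower and 0 higher, with a median log2 change of −1.05. Their part in the fall of Tnf was not tested.

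In Myeloid cells and DC the Tnf levels of the P70 mice also lay below those of the P43 mice, but the change did not pass the test. Myeloid cells held 106, 90.0, 43.0 and 16.2 CPM in mice 4 to 7, and DC held 146, 92.8, 37.5 and 23.1 CPM. Neither class had an overlap of the ages. The log2 change was −1.41 (SE 0.42, adjusted p = 0.158) in Myeloid cells and −1.76 (SE 0.36, adjusted p = 0.0597) in DC, where it passed in 5 of 11 alternatives. The share of thinned Myeloid cells with Tnf went from 25 and 16.9% to 6.30 and 2.27%, and that of DC from 19.2 and 13% to 4.42 and 4.17%. Thinned to 1000 UMIs, the Myeloid shares overlapped between ages, at 10, 4.41, 5.01 and 0.758% in mice 4 to 7, and those of DC were 11.4, 5.41, 3.61 and 1.59%. In the Cd209a cluster of DC, Tnf was at 236 and 127 CPM at P43 and at 13.6 and 0 CPM at P70. Of the Myeloid Tnf cells at P43, 2 of 9 in mouse 4 (22.2%) and 4 of 11 in mouse 5 (36.4%) also held Il1b. Il1b was found in 41.7 and 53.8% of all Myeloid cells of these mice. The Tnf cells are few, and the difference was not tested.

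**Figure D5:**
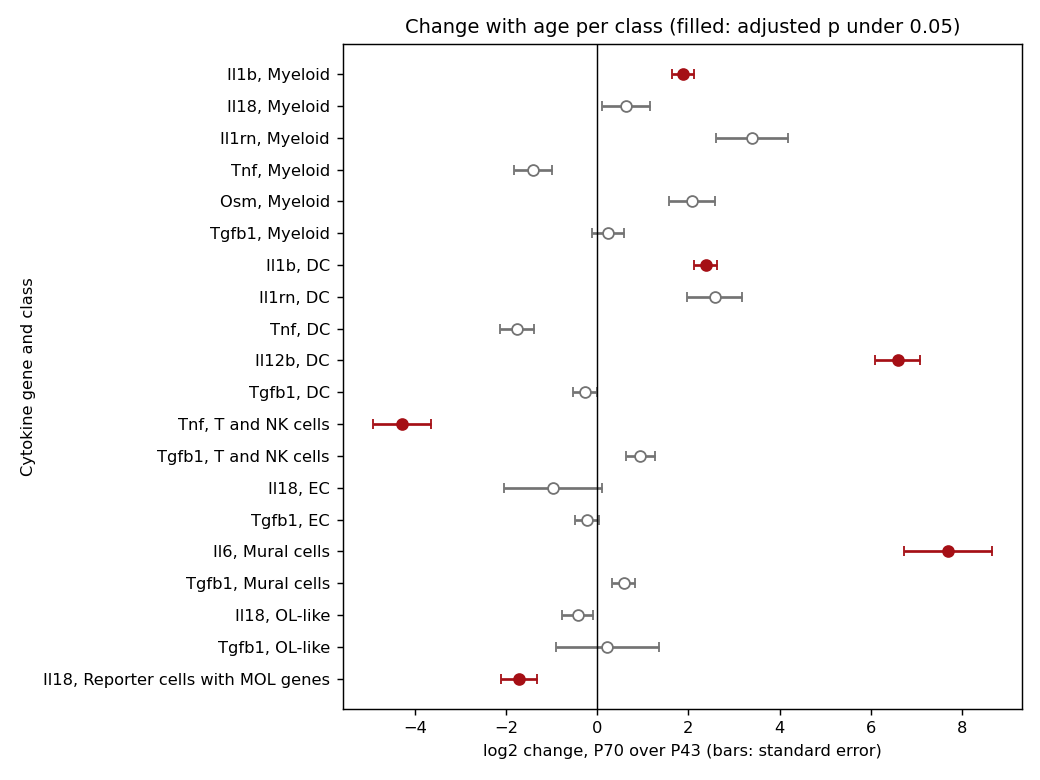
log2 change of P70 over P43 (x axis) with its standard error for each cytokine gene and class that passed the filter on low counts (y axis), from edgeR's quasi-likelihood test on sums per mouse. Filled points passed an adjusted p of 0.05, which are Il1b in Myeloid cells and DC, Il12b in DC, Il6 in mural cells, Tnf in T and NK cells and Il18 in reporter cells with MOL genes.

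Il12b was found mainly in DC of the P70 mice. DC held 0 UMIs in mouse 4 (a limit of 13.7 CPM), 3 UMIs or 4.28 CPM in mouse 5, 934 UMIs or 324 CPM in mouse 6, and 57 UMIs or 329 CPM in mouse 7. The ratio of summed levels was 99.4 with a counting interval of 33.9 to 483, and it was 101 without mouse 6. The fitted log2 change was 6.59 (SE 0.49, adjusted p = 0.000729) and passed in all 11 alternatives. Migratory DC, marked by Fscn1 and Ccr7, held 858 of the 994 UMIs, with 0 and 53.6 CPM at P43 and 1625 and 1543 CPM at P70. These DC numbered 13, 8, 110 and 11 in mice 4 to 7. The transcript lay in few cells. In mouse 6, 10% of the 452 thinned DC held 99.0% of its 299 UMIs, which follows largely from the small share of DC that held any. In thinned cells it was found in 10.6% of DC in mouse 6 and 8.33% in mouse 7, against 1 of 69 in mouse 5, 0 of 26 in mouse 4 and at most 0.142% of OL-like cells. In mouse 4, the 26 UMIs lay in unassigned cells (17), reporter cells with MOL genes (5) and OL-like cells (4). Myeloid cells held 39.2 and 2.71 CPM at P70, with 0 UMIs at P43. Neutrophil markers in DC did not follow age, with summed levels of 0, 2755, 142 and 5.78 CPM in mice 4 to 7.

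Il6 was found at P70 in mural cells, the pericytes and fibroblasts of the vessel wall. Its level in mice 6 and 7 was 32.2 and 32.1 CPM, from 39 and 3 UMIs, and at 0 UMIs in both P43 mice. Against 3 counts over the P43 mice the summed level was at least 17.5-fold higher. The fitted log2 change was 7.69 (SE 0.96, adjusted p = 0.000294), and 1 of the 2 members tested was higher, where 10.8% of 8620 genes were called higher and 7.74% lower. With 0 UMIs at P43, Il6 passed the filter on low counts through the P70 mice alone, so that its place among the 2 depends on the change itself. The size of the fitted change also rests on these 0 counts, for which only the bound of 17.5-fold is given by counting. The call held in all 10 alternatives that gave a value, and it could not be tested without mouse 6. The pericyte cluster led by Rgs5 and Vtn held 38 of the 42 UMIs. A UMI was found in 5 of 117 thinned mural cells of mouse 6 (4.27%) and 1 of 15 of mouse 7 (6.67%), and in 0 OL-like cells. Myeloid markers in mural cells summed to 12.2 and 17.5 CPM at P43 and to 202 and 10.7 CPM at P70. Il6 was also seen in migratory DC with 34 UMIs in mouse 6 and 1 UMI in mouse 7, and in the Acod1 cluster with 21 UMIs in mouse 6.

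Osm, a cytokine of activated macrophages and neutrophils, was highest in mouse 6. Myeloid cells held 18.4, 26.8, 127 and 51.4 CPM in mice 4 to 7, with no overlap of the ages. The log2 change of 2.08 (SE 0.51, adjusted p = 0.102) did not pass, and it was 1.19 without mouse 6. The Acod1 cluster held 279 of the 612 Myeloid UMIs. Neutrophils held 116 CPM in mouse 6, and 144 CPM in the 11 cells of mouse 5. In mouse 6, 18.1% of thinned Myeloid cells held Osm, against 2% of OL-like cells. The Myeloid shares in mice 4, 5 and 7 were 0, 3.08 and 9.09%. Thinned to 1000 UMIs, the shares overlapped between ages, at 5, 1.47, 11.5 and 3.03% in mice 4 to 7. Without thinning they overlapped too, at 5.17, 15.9, 33.7 and 11.1%.

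Il10 was nearly absent at this depth. Of its 15 UMIs, 11 lay in T and NK cells of mouse 6, where 2 of 67 thinned cells held it, 3 in Myeloid cells of mouse 6 and 1 in DC of mouse 5. In the other 3 mice T and NK cells held 0 UMIs, which allows up to 21.6, 6.66 and 118 CPM in mice 4, 5 and 7.

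Tgfb1 was found in immune and vessel classes alike and did not change with age beyond the test's threshold. Myeloid cells held 234.5, 348.5, 411 and 238 CPM in mice 4 to 7, and DC held 219, 226, 206 and 156 CPM. T and NK cells held 108 and 113 CPM at P43 and 219 and 196 CPM at P70. EC lay at 91.1 ± 14.7 CPM and mural cells at 103 ± 22.2 CPM, whereas OL-like tumor cells lay at 2.88 ± 2.18 CPM (SD, n = 4 each). The log2 change did not pass in any of the 6 classes tested and ran from −0.27 in DC (SE 0.26, adjusted p = 0.765) to 0.95 in T and NK cells (SE 0.32, adjusted p = 0.230). In Myeloid cells it was 0.24 (SE 0.34, adjusted p = 0.850) and −0.22 without mouse 6. Of the 4 tested genes that activate latent TGF-β, Thbs1 was the 1 called in Myeloid cells, where 0.453% of all genes were higher. It was at 27.6 and 38.3 CPM at P43 and 642 and 747 CPM at P70 (log2 change 4.42, SE 0.33, adjusted p = 0.00152). The list also had calls in either direction for 3 of 5 genes in EC, 2 of 6 in mural cells and 1 of 3 in reporter cells with MOL genes. Of all genes, 6.4% were higher and 3.68% lower in EC, 10.8 and 7.74% in mural cells, and 5.51% were lower in reporter cells.

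Most thinned Myeloid cells of mouse 6 held 2 or more of the genes, and fewer did in the other mice. The share was 30.6, 41.5, 71.4 and 45.5% in mice 4 to 7. Whether genes met in a cell more often than their single shares give was not tested. A thinned Myeloid cell held 1.06 and 1.38 of the 10 genes at P43 and 2.15 and 1.47 at P70. The share with 3 or more was 2.78, 9.23, 34.3 and 9.09% in mice 4 to 7, so that mouse 7 lay at the level of mouse 5 and mouse 6 stood apart. DC held 0.846 and 0.855 at P43 and 1.24 and 1.10 at P70, and OL-like cells 0.0193 to 0.197.

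Receptors of these cytokines were measured in immune, vessel and tumor cells. Il1r1 was found in mural cells at 64.1 and 77.0 CPM at P43 and 160 and 182 CPM at P70, and in EC at 24.1 and 34.7 against 56.8 and 74.7 CPM. It rose in both, by 1.42 (SE 0.22, adjusted p = 0.000915) and 1.07 (SE 0.30, adjusted p = 0.0333) on the log2 scale. Tnfrsf1a was the other receptor called higher in EC and mural cells, which makes 2 of 11 tested in EC against 6.4% of all genes and 2 of 10 in mural cells against 10.8%. In DC, the decoy receptor Il1r2 rose from 9.11 and 20 CPM to 122 and 341 CPM (log2 change 3.60, SE 0.60, adjusted p = 0.0222). Il1rl1 stood on the same list but is the receptor of IL-33, which is not among the cytokines followed here. It fell from 36.4 and 35.7 CPM to 0 UMIs in both P70 mice (adjusted p = 0.0125). These were the 2 of 11 listed genes called in DC, against 0.724% of all genes higher and 0.344% lower. Il1r2 was thus the 1 called gene that is a receptor of the members. In Myeloid cells, 1 of 11 receptors was called, against 0.652% of all genes lower. It was Lifr, a receptor subunit that OSM can use, which fell from 115 and 68.9 CPM to 19.6 and 18.9 CPM (log2 change −2.10, SE 0.38, adjusted p = 0.0452). Il18r1 was at 201, 424, 216 and 39.3 CPM in T and NK cells, and Osmr was found in EC at 62.3 to 91.8 CPM and in mural cells at 53.5 to 129 CPM. In OL-like cells Il1r1 and Osmr were at most 1.37 CPM. Among the genes that process IL-1 and release TNF, such as Nlrp3 at 103 to 134 CPM in Myeloid cells, edgeR called 0 of 9 tested in Myeloid cells and 0 of 8 in DC at an adjusted p of 0.05. At an unadjusted p under 0.05 there were 1 and 1, and DESeq2 called 1 lower and 0.

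Vessel cells had higher levels at P70 of genes on the lists of NF-kappaB and STAT3 targets. These lists were chosen with earlier results of these data known, so counts on them are a description and not an independent test. In mural cells 8 of 8 tested STAT3 targets were higher, with a median log2 change of 2.70, and 7 of 12 NF-kappaB feedback and target genes were higher and 0 lower, with a median of 2.04. Of all 8620 genes tested, 10.8% were higher and 7.74% lower, and their median was within 0.03 of 0. Socs3, the feedback inhibitor of STAT3, went from 15.3 and 17.5 CPM to 118 and 139 CPM, and Timp1 from 0 and 8.22 CPM to 139 and 171 CPM. Icam1, an adhesion receptor for leukocytes, went from 1.53 and 1.03 CPM to 79.2 and 64.2 CPM, and Nfkbia from 142 and 193 CPM to 558 and 1006 CPM. Without mouse 6, which leaves 37 mural cells of mouse 7 with 93404 UMIs at P70, the medians were 2.61 over 7 STAT3 targets and 1.41 over 10 NF-kappaB genes.

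In EC, 8 of 10 STAT3 targets were higher (median 1.23), as were 10 of 16 NF-kappaB genes (median 1.53), with Cd83 lower, where 6.4% of 8808 genes were higher and 3.68% lower. Most EC at P70 came from mouse 6, with 293 cells against 37 in mouse 7. The EC of mouse 7 held 80285 UMIs and carried 324 CPM of the tumor reporter. Without mouse 6, which leaves these 37 cells at P70, the medians were 0.89 over 10 STAT3 targets and 0.05 over 12 NF-kappaB genes. A lower count without mouse 6 could not be told from the loss of cells. Without integration 2 of 8 and 1 of 9 were higher. The EC class held 66 cells of mouse 6 without integration, against 293 with it. In that setting an unassigned cluster, with Vwf and Ecscr among its leading genes, held 229 cells of mouse 6. The part of this split in the lower counts was not tested. Myeloid markers summed to 254 CPM in EC of mouse 6, against 0 to 11.5 CPM in the other mice. Their part in the counts of higher genes was not tested. Genes of the dissociation response moved in the same cells, with 5 higher and 2 lower of 14 in EC and 6 higher and 2 lower of 14 in mural cells. Junb stands in both that list and the STAT3 list, and their part in these counts was not tested. Of the members themselves, 0 of the 2 tested in EC were called. In Myeloid cells edgeR called 0 of 20 genes of the NF-kappaB list, where 0.453% of all genes were higher and 0.652% lower, 10 had an unadjusted p under 0.05, and DESeq2 called 3 higher and 1 lower. In DC it called 3 higher (Ccl4, Cd83 and Rel) and 1 lower (Ier3) of 20, against 0.724 and 0.344%. The age change differed between DC and Myeloid cells for 3 of the 20 genes, higher in DC for Nfkbia and lower for Ier3 and Sod2, against 0.735% of all genes. For this list other differences between classes were not tested. Of the STAT3 list, edgeR called 0 of 9 genes in Myeloid cells and 0 of 9 in DC, with 2 and 3 at an unadjusted p under 0.05. In T and NK cells it called 1 of 7 in either direction, and 6 had an unadjusted p under 0.05. There, 0.882% of all genes were called higher and 0.504% lower.

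For each cytokine, the genes whose level ran most alike were sought over 40 sums of class and mouse. Pearson's r on log2(CPM + 1) is given as a description, since sums share libraries and depth. Il1b ran most like Mpeg1 (r = 0.98), followed by Cd300c2, of 14247 genes compared. Il1rn ran most like Lilrb4a (0.94), Osm like Ccr1 (0.91), Il1a like Adamdec1 (0.91), Tnf like Tnfaip8l2 (0.90) and Tgfb1 like Ifi203 (0.95). Il12b ran most like Gna14 (0.87) and Il18 like Kcnk13 (0.75), whereas the best value for Il6 was 0.68 with Myoz1.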

How the data were processed

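Tumors of 4 mice, 2 aged 43 days and 2 aged 70 days, were profiled with 10x 3′ single-cell RNA sequencing. The authors deposited filtered matrices of UMI counts per gene and barcode, aligned to mm10 with Cell Ranger 6.0.2 per the submitters' processing notes. Here, cells were kept with at least 200 genes, at most 40000 UMIs and a mitochondrial share under 25%, and genes found in at least 3 cells. The mice were integrated by anchors in Seurat 5.3.0 (2000 variable genes without the 10 cytokine genes, 30 components, resolution 0.5), and immune clusters were clustered again. No doublet caller was run, so mixed droplets may remain in a class. Clusters were named from marker lists (at least 3 markers raised 2-fold), tumor cells also by at least 500 CPM of the reporter. The cytokine genes, marker lists and pathway lists were chosen with earlier results of these data known.

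Counts were summed per mouse and class with at least 20 cells, and P70 was compared with P43 by edgeR 4.0.16, its quasi-likelihood test with Benjamini-Hochberg adjustment over all genes passing its filter on low counts. The script was tested on simulated data. Each age has 2 mice. For shares of cells with a UMI, all cells were thinned to 2000 UMIs and shallower ones were left out. Intervals are exact 95% Poisson and binomial intervals and, like limits for 0 (3 counts), cover counting error only. Total counts per mouse were 13106786 to 40621958 UMIs. Named genes were the 10 members, genes of the pathway lists that passed the age test, up to 4 of the most abundant of each list, and, for members with at least 50 UMIs, the 3 genes most like them over sums. Of these only examples are given, and Nlrp3, Il18r1 and Osmr were picked after their values were seen. Alternatives were DESeq2 1.42.0, other size factors, no filter, each mouse left out, and other cell filters, resolution, integration and thinning. Tnf in the T and NK cell clusters of these settings was added after seeing the data.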

Additional observations from a re-analysis of the deposited data

How the results depend on the processing

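Of the cytokine genes' age changes under alternatives, 214 kept direction and side of the threshold, 16 gained significance, 7 lost it and 12 changed sign. The calls of Il1b and Il12b in DC and of Il6 in mural cells held wherever they could be fitted. Counts of genes changed with age moved most. In Myeloid cells 61 genes became 98 with DESeq2, 418 with no filter on low counts, 39 with a limit of 60000 UMIs, 35 with a mitochondrial share under 10% and 6 without integration. In DC 59 became 356 with no filter, 12 with 60000 UMIs and 257 without integration. In EC 888 became 252 with DESeq2 and 67 without integration, and in mural cells 1594 became 576 with DESeq2. In T and NK cells 55 became 18 with DESeq2 and 158 with no filter. In OL-like cells 0 became 35 with DESeq2 and 2 with no filter, in reporter cells with MOL genes 811 became 1768 with no filter, and for the difference between DC and Myeloid cells 47 became 126. Leaving out each mouse in turn gave 13 to 619 genes in Myeloid cells, 64 to 222 in DC, 15 to 260 in T and NK cells, 290 to 1313 in EC, 587 to 2115 in mural cells, 0 to 1 in OL-like cells, 1 to 1940 in reporter cells and 54 to 96 for the difference. An age left with 1 mouse was assumed to vary like the others. The EC class without integration also held fewer cells of mouse 6, with 66 against 293. The cause of these shifts was not tested.

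As means over mice, the Myeloid share of UMIs without integration was 79.0% for Il1a, 51.8% for Il1b and 47.7% for Il1rn. Without thinning, the share of cells with a UMI was 5.56% for Il1a, 63.1% for Tgfb1 and 16.5% for Osm in Myeloid cells and 19.8% for Il18 in reporter cells with MOL genes, against 2.57, 41.9, 7.57 and 7.17% at 2000 UMIs, and with 1000 UMIs it was 27.7% for Tgfb1. Changes of sign were all in changes that did not pass. With each mouse left out in turn, the log2 change ran from −1.52 to 1.13 for Il18 in EC, −0.50 to 1.29 for Il18 and −0.22 to 0.61 for Tgfb1 in Myeloid cells, and −1.97 to 1.21 for Tgfb1 in OL-like cells, where it was also −0.15 with 60000 UMIs and −0.39 with a mitochondrial share under 10%. The difference between DC and Myeloid cells ran from −1.34 to 5.31 for Il1rn, −2.28 to 3.43 for Il12b and −0.69 to 0.17 for Tnf. Each of these 7 changed sign without mouse 6.

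No paired analysis was possible because the mice carry the numbers 4 to 7, none shared between ages. Reporter cells with MOL genes formed no class without integration, so that alternative was not run for them. With 2 mice per age and as few as 20 cells per sum, depth limits Il1a, Il6 and Il10 most.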
